A study of Homo sapiens with 25 samples.

Results

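The comparison asked which genes depart from a straight line across 4 gates of dye accumulation, by setting the outer gates (high and low dye) against the inner gates (midhigh and midlow dye) in hiF-T cells. It used 16 of the 25 libraries of the series, 8 from the outer and 8 from the inner gates, chosen by their labels. hiF-T is a line of human fibroblast-like cells that came from BJ skin fibroblasts and carries an inducible hTERT (the catalytic subunit of telomerase). Each gate had 4 biological replicates, the genotype is given as WT, and the treatment as none. A further 4 libraries of ungated cells are given beside the gated ones, and the 5 libraries of the drug experiment were not used. All groups share the 1 cell line and the transgene, and the labels state neither whether the line is clonal nor whether the transgene was induced. They name no dye, give no fluorescence values for the gates, and do not state which end of the dye range holds the slowly dividing cells. The series design says that cells were sorted on proliferation status.

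Dyes that bind stably inside cells are shared out between daughter cells at each division, so dividing cells lose such a dye and cells at rest keep it. Proliferating cells make their transcripts in waves: genes for DNA replication are driven by E2F factors around the start of S phase, and genes for mitosis follow through the DREAM and MYB-MuvB complexes and FOXM1, often at a promoter element called the cell cycle genes homology region (CHR). Cultured fibroblasts also make large amounts of collagen and other matrix proteins.

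The measure used here is the curve, the mean log2 level of high and low dye minus the mean log2 level of midhigh and midlow dye, with the replicate number as a block. Curves, slopes and steps are log2 values and are given ± SE. A positive curve means higher in the outer gates, and a gene on a straight line over the 4 equally spaced gates has a curve of 0. A negative curve is given by an arch, by a rise that flattens towards high dye, or by a fall that begins late. The slope is the straight-line change per gate on the log2 scale, and the line change is 3 times the slope, from low to high dye. The 3 steps are bottom (midlow over low), middle (midhigh over midlow) and top (high over midhigh), and the curve equals the top step minus the bottom step, divided by 2.

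Libraries held 15015039 to 20030093 gene counts, and mitochondrial genes took 2.19% to 2.97% of them. All 12 fibroblast markers passed the count filter, with a summed level of 6388 to 11117 counts per 1e+06 gene counts (CPM) over libraries. THY1, a defining fibroblast surface marker, was near 0 at 0.322 CPM in low dye and 0.395 CPM in high dye. Of the markers of other cell types, 7 of 12 epithelial, 3 of 9 endothelial, 1 of 13 immune and erythroid, 3 of 10 melanocyte and Schwann cell, 7 of 14 neuronal and 5 of 11 pluripotency genes passed the filter, and EPCAM, MLANA and CSF1R had means under 1 CPM in each gate. The 7 epithelial markers, mostly keratins, summed to 132 to 343 CPM, and 6 of them had a negative curve. The 7 neuronal markers summed to 589 to 1342 CPM and the 5 pluripotency markers to 192 to 896 CPM. The 3 endothelial markers summed to 66.4 to 105 CPM, and the 3 melanocyte and Schwann cell markers to 1.63 to 7.03 CPM. The library measures had no curve of 1 sign in all replicate numbers. The curve of the mitochondrial share was 0.0383 ± 0.250 percentage points and that of reads in no feature 0.303 ± 0.430 percentage points (SD, n = 4). In bulk RNA, fewer cells of a type and less RNA per cell cannot be told apart.

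No gene met the threshold for a curved response, while many genes had a straight one. Of 14419 genes tested, 0 (0%) had a curve at a Benjamini-Hochberg adjusted p under 0.05 by edgeR's quasi-likelihood test, and the lowest adjusted p was 0.0553. At an unadjusted p under 0.05 there were 775 genes (5.37%), 327 higher (2.27%) and 448 lower (3.11%) in the outer gates. With the same design limma-voom called 2 genes, IGFBP5 and SCUBE3, and the DESeq2 Wald test called 7, which added LRRC17, TOP2A, TMEM132B, CDK1 and DSEL. All of these were lower in the outer gates. In the same edgeR fit the slope was called for 6344 genes (44%), of which 3338 (23.2%) rose and 3006 (20.8%) fell over the gates, low to high dye. The cubic term, which measures an S-shaped course, was called for 0 genes (0%), with 1110 (7.7%) at an unadjusted p under 0.05 and a lowest adjusted p of 0.637.

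**Figure D1:**
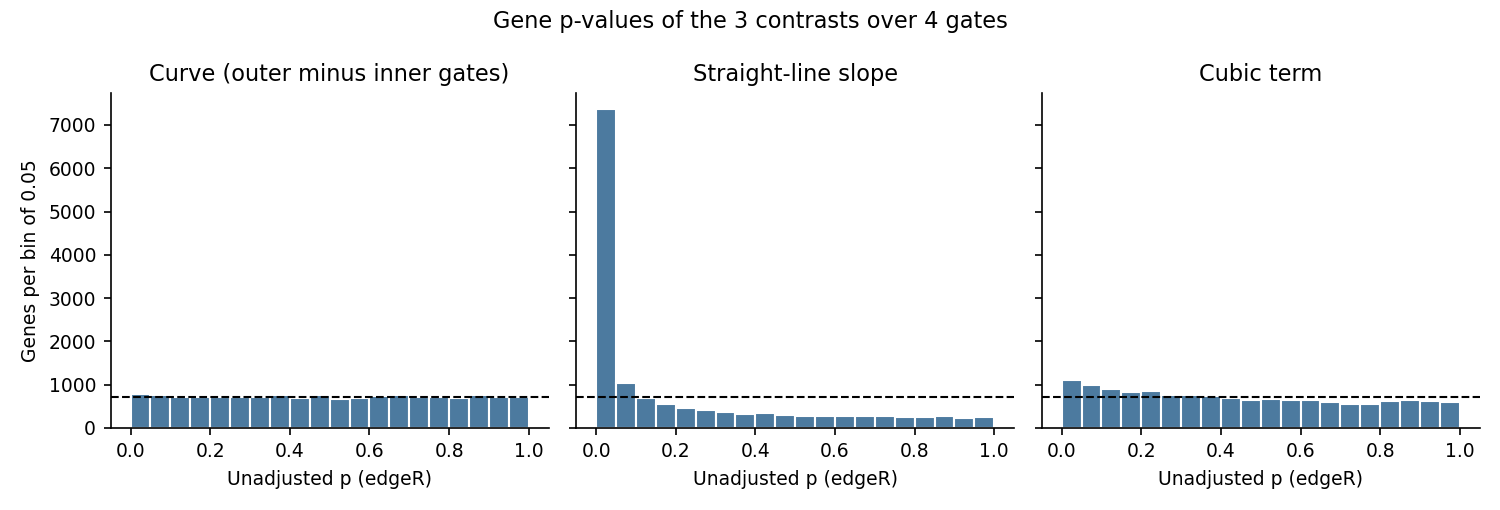
Numbers of genes in bins of 0.05 of the unadjusted edgeR p for the slope, the curve and the cubic term over 4 gates, with the dashed line at an even spread of the 14419 genes. The slope has 7360 genes (51%) below 0.05, against 775 for the curve and 1110 for the cubic term.

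The spread between replicates left room for small curves. The median standard error of a curve was 0.0647 on the log2 scale, and 0.0483 for the 8927 genes with a mean of at least 10 CPM. For 12408 genes (86.1%) the 95% interval of the curve lay inside a 1.5-fold change in either direction, and for 14087 (97.7%) inside a 2-fold change. Of the 6344 genes with a slope, 5871 (92.5%) had a curve interval inside 1.5-fold. The median size of the curve was 0.0482, against 0.215 for the line change, both on the log2 scale. Among the 750 genes whose line change was at least 2-fold, the curve had a median size of 0.0936 of the line change, and 361 of the 750 had a positive curve. Of the genes with at least 10 CPM, 2 had a curve of 0.5 or more in size, IGFBP5 and TMEM132B.

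The 3 steps were uneven beyond this. Over the 3338 rising genes the median bottom, middle and top steps were 0.11, 0.22 and 0.08, and over the 3006 falling genes they were -0.07, -0.18 and -0.08 on the log2 scale. The middle step was thus the largest of the 3 medians in both directions, and the outer steps were of like size. The 615 rising genes of at least 2-fold gave 0.34, 0.71 and 0.35, and the 135 falling ones -0.23, -0.59 and -0.29. A wider distance between midlow and midhigh dye than between the other neighbours cannot be told apart from a steeper response there, because the labels give no fluorescence values. An equal stretch of the middle step moves the cubic term and leaves the curve as it is.

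**Figure D2:**
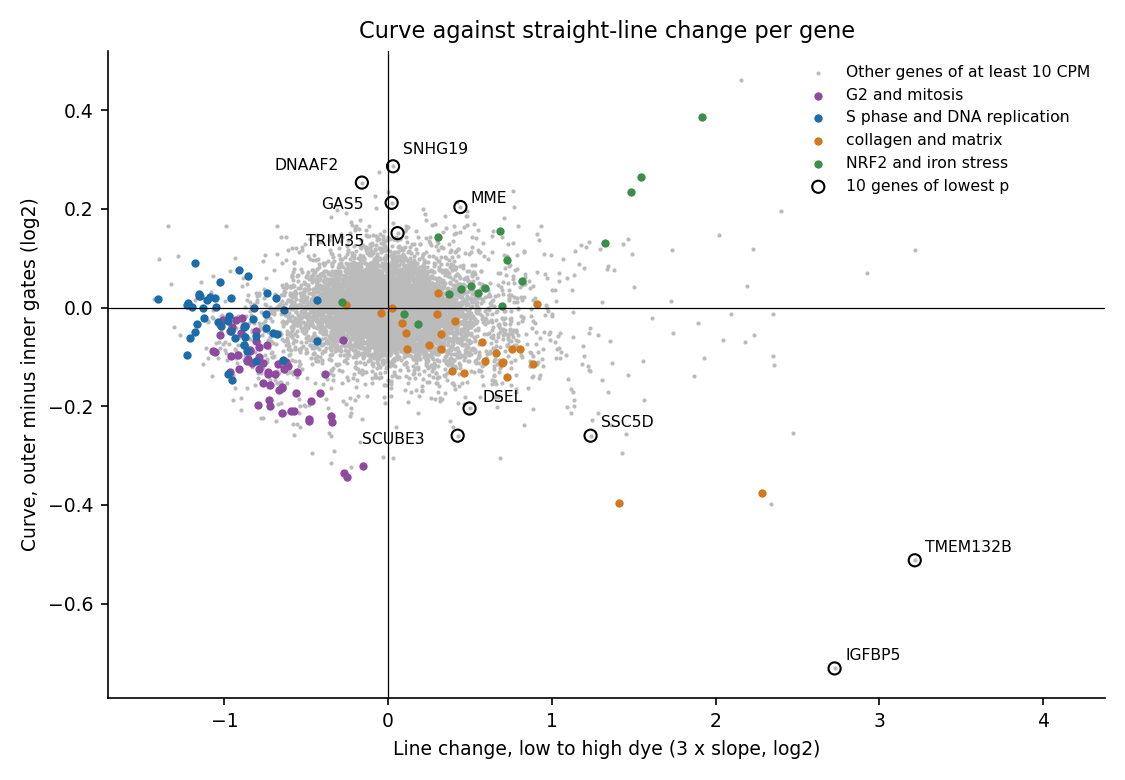
Curve (y axis, log2, outer minus inner gates) against line change (x axis, log2, 3 times the slope) for genes of at least 10 CPM in grey, with members of 4 gene lists in colour and the 10 genes of lowest p, 5 in each direction, circled. Most genes spread along the x axis and stay near 0 on the y axis, with IGFBP5 lowest at -0.73.

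The 5 genes of lowest p that were lower in the outer gates were IGFBP5, SCUBE3, TMEM132B, DSEL and SSC5D among genes with a mean of at least 10 CPM, and none passed the threshold in the edgeR fit with the count filter. The limma-voom fit called IGFBP5 and SCUBE3, the DESeq2 fit called these and TMEM132B and DSEL, and the edgeR fit without a filter called all 5. All these fits use the same libraries, so they are not separate support. IGFBP5, a secreted binding protein of insulin-like growth factors (ENSG00000115461, chromosome 2 from 216672105 to 216695525, GRCh38), averaged 29.2 ± 12.1 CPM in the outer gates and 37.8 ± 14.2 CPM in the inner gates (SD, n = 4 replicate averages each). IGFBP5 had 14.04, 4.43, 13.3 and 3.25 CPM in low dye replicates 1 to 4, 24.1, 16.5, 32.99 and 11.9 CPM in midlow dye, 65.2, 48.8, 73.7 and 29.6 CPM in midhigh dye and 47.5, 48.9, 75.2 and 26.7 CPM in high dye. The low dye replicates were below every midhigh and high dye replicate, and midhigh and high dye overlapped. Ungated cells averaged 41.98 ± 21.2 CPM. Its steps were 1.33 ± 0.17, 1.37 ± 0.15 and -0.13 ± 0.14 on the log2 scale (SE), a climb over the lower gates with none at the top. The curve was -0.73 ± 0.11 (95% interval -0.97 to -0.50, edgeR adjusted p = 0.0553), and the replicate numbers gave -0.62, -0.93, -0.64 and -0.99. Without low dye replicate 1 it was -0.88 with an adjusted p of 0.00115, and over the 20 fits that left out a library or a replicate number the adjusted p ranged up to 0.545 and was under 0.05 in 4. The ratio of arithmetic means instead of log2 means gave -0.38.

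SCUBE3, a secreted and cell surface glycoprotein with EGF-like and CUB domains (ENSG00000146197, chromosome 6 from 35214419 to 35253079), had an arched course. SCUBE3 had 552, 747, 633 and 806 CPM in low dye replicates 1 to 4, 612, 899, 831 and 1053 CPM in midlow dye, 785, 1087, 1103 and 1179.5 CPM in midhigh dye and 674, 838, 941 and 1109 CPM in high dye. Within each replicate number the midhigh dye library was the highest of the 4, and the low dye library was the lowest. It averaged 787 ± 140.4 CPM in the outer gates and 944 ± 176 CPM in the inner gates (SD, n = 4 replicate averages each). Ungated cells averaged 1052 ± 326 CPM. The curve was -0.26 ± 0.04 (SE, edgeR adjusted p = 0.0577), with a bottom step of 0.29 ± 0.06 and a top step of -0.22 ± 0.06. Without high dye replicate 4 the adjusted p was 0.0495, the only one of 20 such fits under 0.05.

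TMEM132B, a gene of a family of single-pass membrane proteins (ENSG00000139364, chromosome 12 from 125186836 to 125662377), rose steeply along the line with a slope of 1.07 ± 0.05 per gate (SE, edgeR adjusted p = 4.1e-11). TMEM132B had 4.76, 3.31, 2.37 and 0.490 CPM in low dye replicates 1 to 4, 10.4, 8.28, 4.78 and 2.87 CPM in midlow dye, 34.6, 21.8, 12.4 and 7.25 CPM in midhigh dye and 46.3, 23.99, 16.6 and 7.30 CPM in high dye. In ungated cells the mean was 16.1 ± 8.81 CPM. Every replicate number kept its rank in every gate, replicate 1 highest and replicate 4 lowest. The curve was -0.51 ± 0.10 (adjusted p = 0.259), with -0.35, -0.58, -0.28 and -1.14 in the 4 replicate numbers. The arithmetic means were 13.1 ± 9.17 CPM in the outer gates and 12.8 ± 7.68 CPM in the inner gates (SD, n = 4 replicate averages each), and their log2 ratio of 0.04 has the other sign, so its direction depends on the scale.

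DSEL, an epimerase that forms iduronic acid in dermatan sulfate chains (ENSG00000171451, chromosome 18 from 67506582 to 67516980), stood at 125, 149, 188 and 169.7 CPM in low, midlow, midhigh and high dye, a curve of -0.20 ± 0.04. SSC5D, a soluble scavenger receptor (ENSG00000179954, chromosome 19 from 55488404 to 55519098), stood at 18.7, 26.3, 42.3 and 41.7 CPM, a curve of -0.26 ± 0.06. Both had an adjusted p of 0.456 in edgeR. In DSEL the midhigh dye library was the highest of its replicate number in 4 of 4, and in SSC5D in 1 of 4. All 5 genes had a negative curve in 4 of 4 replicate numbers, a rule that 1275 of the tested genes (8.84%) met. They were picked by p from these same replicates, so this agreement is not separate support. The library kit does not record strand, and IGFBP5, SCUBE3 and DSEL overlap antisense genes (AC007563.2, SCUBE3-AS1, DSEL-AS1). Where the genes overlap, strand cannot tell their reads apart. HTSeq set aside 7.14% to 7.57% of gene, no-feature and ambiguous reads per library as ambiguous. How many of those fell on these overlaps was not tested.

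The 5 genes of lowest p that were higher in the outer gates were GAS5, DNAAF2, MME, TRIM35 and SNHG19 among genes with a mean of at least 10 CPM, each at an edgeR adjusted p of 0.897. The fit without a filter called GAS5 and MME. GAS5, a long non-coding host of small nucleolar RNAs that builds up in growth-arrested cells (ENSG00000234741, chromosome 1 from 173863900 to 173868882), averaged 159.7 ± 12.3 CPM in the outer gates and 139 ± 17.7 CPM in the inner gates (SD, n = 4 replicate averages each). GAS5 had 154, 150.4, 163 and 159.8 CPM in low dye replicates 1 to 4, 162, 124, 136 and 141 CPM in midlow dye, 163, 117, 128 and 137 CPM in midhigh dye and 201, 164, 141 and 144 CPM in high dye. Low dye was above midlow dye in 3 of 4 replicate numbers, and high dye was above midhigh dye in 4 of 4. The curve was 0.21 ± 0.06 (95% interval 0.09 to 0.33), and the slope of 0.01 ± 0.02 was not called. GAS5 overlaps ZBTB37 and GAS5-AS1 on the other strand, and MME overlaps MME-AS1.

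MME, the cell surface peptidase neprilysin or CD10 (ENSG00000196549, chromosome 3 from 155024124 to 155183729), was flat over 3 gates and higher in the last. MME had 82.3, 72.4, 75.97 and 78.2 CPM in low dye replicates 1 to 4, 83.9, 81.6, 75.96 and 74.6 CPM in midlow dye, 85.3, 82.4, 82.4 and 71.1 CPM in midhigh dye and 115, 132, 102 and 86.4 CPM in high dye. The lowest high dye library lay above every library of the other gates. The bottom and middle steps were 0.03 ± 0.08 and 0.02 ± 0.08, against 0.43 ± 0.08 for the top step, and the curve was 0.20 ± 0.06. SNHG19, another small nucleolar RNA host (ENSG00000260260, chromosome 16 from 2154797 to 2155358), stood at 13.9, 11.3, 11.7 and 14.1 CPM over the gates, a curve of 0.29 ± 0.08. DNAAF2, an assembly factor of ciliary dynein arms (ENSG00000165506, chromosome 14 from 49625174 to 49635230), stood at 16.6, 14.4, 12.5 and 15.4 CPM (0.25 ± 0.07), and TRIM35, of the tripartite motif family, at 24.5, 22.2, 22.8 and 25.4 CPM (0.15 ± 0.04). All 5 were positive in 4 of 4 replicate numbers, as were 908 of the tested genes (6.3%). Here too the pick by p used these same replicates, so the agreement is not separate support.

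**Figure D3:**
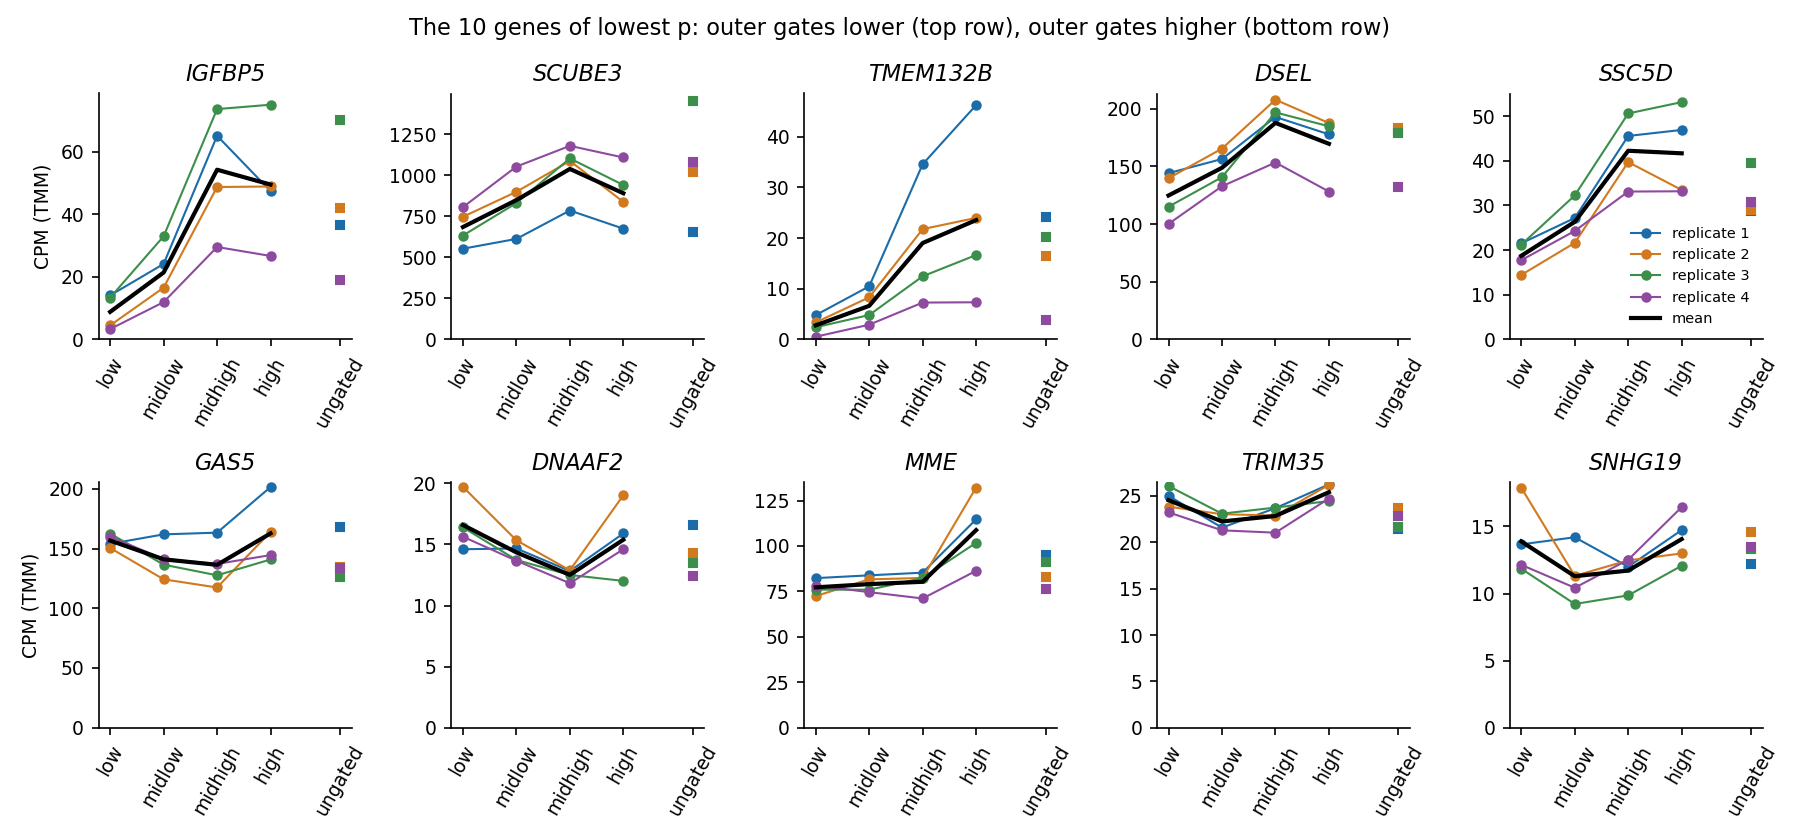
Level (CPM, y axis from 0) of the 10 genes of lowest p (mean of at least 10 CPM, 5 in each direction) in each gate and in ungated cells, with 1 coloured line per replicate number and the mean in black. In the top row the means climb to midhigh dye and then level off or turn down, as in IGFBP5 with means of 8.76, 21.4, 54.3 and 49.6 CPM, or climb by a smaller step, as in TMEM132B; in the bottom row the ends lie above the middle, except MME, which is higher in high dye alone.

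The 8 genes named for their place in the study were not called for a curve by edgeR with the count filter, and of the 8 TOP2A was called by DESeq2 and without a filter. CDKN1A, which encodes the cell cycle inhibitor p21, had 187, 272, 519.9 and 866 CPM over low, midlow, midhigh and high dye and a curve of 0.12 ± 0.11, positive in replicates 1 and 2 and negative in 3 and 4. Its 3 steps were 0.53 ± 0.15, 0.88 ± 0.15 and 0.77 ± 0.15, and the ratio of arithmetic means gave a larger curve of 0.41. TERT had 886, 966, 1182 and 1314 CPM and a curve of 0.00 ± 0.10, whose sign changed between fits. KDM1A (LSD1) was at -0.04 ± 0.05, DOT1L at -0.06 ± 0.07 and KLF4 at 0.07 ± 0.08. MYC, with 80.4, 71.6, 70.99 and 70.6 CPM, had a curve of 0.08 ± 0.03 that was positive in 4 of 4 replicate numbers (edgeR adjusted p = 0.914), and its bottom step of -0.17 ± 0.05 stood beside a top step of -0.01 ± 0.05. The proliferation marker MKI67 was at -0.13 ± 0.11, negative in 4 of 4.

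Among the gene lists, mitosis genes had negative curves and DNA replication genes had curves on both sides of 0, although both declined with dye. Of 60 genes of G2 and mitosis 57 fell along the line, and 59 had a negative curve, with a median of -0.12. Unadjusted p was under 0.05 for 11 of them (18.3%), all negative, against 5.37% of all genes. None was called by edgeR with the count filter. The DESeq2 fit called CDK1 and TOP2A, and the edgeR fit without a filter called 13 of the 60, all lower in the outer gates. Without a filter TOP2A had a curve of -0.36 ± 0.04 (SE), against -0.34 ± 0.08 with it. Of 50 S phase genes 49 fell along the line, 31 had a negative curve with a median of -0.02, and none had an unadjusted p under 0.05. Over all genes tested the median curve was -0.00, with 7412 of 14419 negative.

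The step at which the decline began differed between the lists. The median bottom, middle and top steps of the mitosis list were -0.03, -0.41 and -0.27, and those of the S phase list -0.17, -0.53 and -0.20. The mean log2 CPM of the mitosis list was 6.91 ± 0.12, 6.90 ± 0.09, 6.51 ± 0.33 and 6.21 ± 0.51 in low, midlow, midhigh and high dye (SD, n = 4), so low and midlow dye were level with each other. The S phase list stood at 6.01 ± 0.09, 5.85 ± 0.04, 5.34 ± 0.32 and 5.11 ± 0.46. The mean curve of the mitosis list was -0.34, -0.12, -0.11 and -0.01 in replicates 1 to 4, and that of the S phase list -0.23, -0.02, 0.02 and 0.08. Their difference, mitosis minus S phase, was -0.11, -0.10, -0.13 and -0.09, or -0.11 ± 0.02 (SD, n = 4), and was negative in each replicate number. The size of the mitosis curve rested on single replicates and on the spacing of the gates. Without replicate 1 the list's median was -0.06, with 45 of 60 negative and 4 at an unadjusted p under 0.05, and the S phase median was 0.05. Without low dye replicate 3 the mitosis median was -0.20, with 39 members at an unadjusted p under 0.05, and without the replicate block 3 members were. The number of all genes at that p moved between fits too. It ranged from 637 to 1011 when a library or replicate number was left out, and it was lower without the block. With the high gate placed 2 steps above midhigh the medians were -0.00 for mitosis and 0.13 for S phase, and with the low gate placed 2 steps below midlow they were -0.25 and -0.18.

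The mitosis genes of lowest p were picked after their values were seen, as were all list members named from here on. TOP2A, the topoisomerase that untangles chromosomes (ENSG00000131747, chromosome 17 from 40388516 to 40417950), is also 1 of the 8 genes above. TOP2A had 422, 429, 415 and 530.3 CPM in low dye replicates 1 to 4, 502, 618, 528 and 676 CPM in midlow dye, 491, 580.2, 355 and 566 CPM in midhigh dye and 299, 509.6, 262 and 552 CPM in high dye. Midlow dye was above low dye in 4 of 4 replicate numbers, and high dye was below midlow dye in 4 of 4. It averaged 427 ± 94.8 CPM in the outer gates and 539 ± 84.9 CPM in the inner gates (SD, n = 4 replicate averages each), with a curve of -0.34 ± 0.08 (SE, edgeR adjusted p = 0.710) and a slope of -0.08 ± 0.04 that was not called (adjusted p = 0.0674).

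CDK1, the kinase that drives entry into mitosis (ENSG00000170312, chromosome 10 from 60778331 to 60794852), stood at 95.7, 125, 103 and 84.8 CPM over the gates, a curve of -0.33 ± 0.08. CDK1 had 101, 84.9, 82.96 and 114 CPM in low dye replicates 1 to 4, 117, 128, 107 and 149 CPM in midlow dye, 113, 117, 71.9 and 110.1 CPM in midhigh dye and 69.03, 109, 58.5 and 103 CPM in high dye. Its midlow dye library was the highest of the 4 in every replicate number. UBE2C, the ubiquitin-conjugating enzyme of the anaphase-promoting complex, had the same order of gates at 53.9, 69.7, 61.5 and 50.9 CPM (-0.32 ± 0.08), and CDC25B, a phosphatase that activates CDK1, stood at 120.3, 129, 120.0 and 96.1 CPM (-0.22 ± 0.07). Among the S phase genes, ORC1, which helps to mark replication origins, was lower at each next gate at 37.1, 29.99, 18.1 and 14.99 CPM and had a curve of 0.02 ± 0.10. RRM2, a subunit of ribonucleotide reductase, stood at 201, 198, 135 and 111 CPM (-0.14 ± 0.12), a bottom step of -0.03 ± 0.17.

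**Figure D4:**
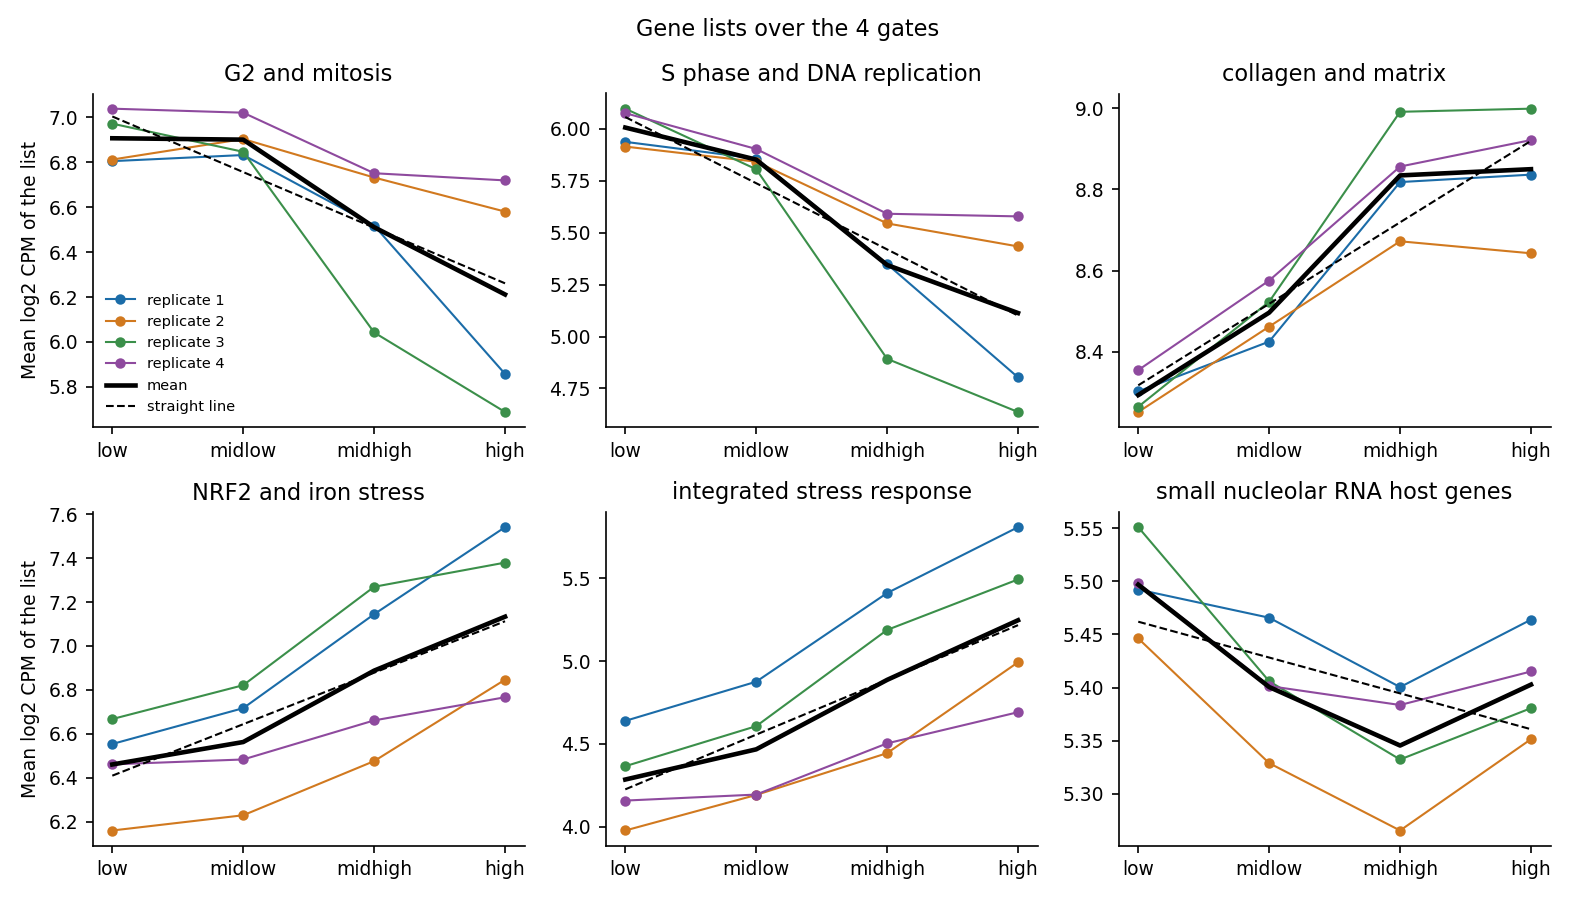
Mean log2 CPM of the members of gene lists (y axis) over the 4 gates, with coloured lines for replicate numbers, the mean in black and a straight line through the means for comparison. The mitosis list is level between low and midlow dye and then declines, the S phase list declines from the first step, and the matrix list climbs to midhigh dye and is level to high dye.

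The promoters of the lists carry different letters, and 4 windows are shown because they belong to genes of these courses. Windows of 250 bases before to 50 after the start came from RefSeq (GRCh38.p14), with 52 of the 60 mitosis genes and 42 of the 50 S phase genes matched. A gene was counted if any of its windows held a match. The CHR letters TTTGAA, searched on both strands, were found for 38 of 52 mitosis genes (73.1%) and 1 of 42 S phase genes (2.38%). The share was 18.2% of all 27305 genes with a window. E2F letters, TTGGCGC or TTCCCGC on either strand, were in 12 of 52 (23.1%) and 31 of 42 (73.8%), against 2993 of 27305 genes. A match is a description of letters and not a site of binding. Inside the mitosis list the 38 genes with CHR letters had a median curve of -0.13 and the 14 without them -0.12. TOP2A (chr17:40417847-40418146, minus strand) and CDK1 (chr10:60778228-60778527, plus strand) are printed 5′ to 3′ with the CHR letters, or their reverse complement TTCAAA, in capitals.
TOP2A: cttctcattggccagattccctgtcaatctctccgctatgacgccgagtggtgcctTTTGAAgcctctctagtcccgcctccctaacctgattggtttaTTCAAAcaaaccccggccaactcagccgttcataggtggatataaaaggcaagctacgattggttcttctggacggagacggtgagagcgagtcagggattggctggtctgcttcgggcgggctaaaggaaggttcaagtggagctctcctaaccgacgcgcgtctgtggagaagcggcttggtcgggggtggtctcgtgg
CDK1: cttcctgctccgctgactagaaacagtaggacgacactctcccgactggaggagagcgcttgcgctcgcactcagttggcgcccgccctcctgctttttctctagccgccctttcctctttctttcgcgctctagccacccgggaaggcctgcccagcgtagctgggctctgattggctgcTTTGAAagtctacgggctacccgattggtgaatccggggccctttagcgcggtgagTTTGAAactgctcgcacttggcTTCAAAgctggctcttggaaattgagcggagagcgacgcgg

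Of the S phase genes, ORC1 (chr1:52404374-52404673, minus strand) and CLSPN (chr1:35769929-35770228, minus strand), which encodes the checkpoint adaptor claspin, are printed in the same way with the E2F letters in capitals, in CLSPN as the reverse complement of TTCCCGC.
ORC1: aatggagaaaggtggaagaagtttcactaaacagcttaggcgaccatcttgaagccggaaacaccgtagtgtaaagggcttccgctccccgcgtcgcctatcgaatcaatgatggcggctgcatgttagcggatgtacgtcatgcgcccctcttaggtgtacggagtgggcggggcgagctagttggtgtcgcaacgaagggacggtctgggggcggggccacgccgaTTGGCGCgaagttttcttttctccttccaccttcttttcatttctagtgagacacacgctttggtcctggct
CLSPN: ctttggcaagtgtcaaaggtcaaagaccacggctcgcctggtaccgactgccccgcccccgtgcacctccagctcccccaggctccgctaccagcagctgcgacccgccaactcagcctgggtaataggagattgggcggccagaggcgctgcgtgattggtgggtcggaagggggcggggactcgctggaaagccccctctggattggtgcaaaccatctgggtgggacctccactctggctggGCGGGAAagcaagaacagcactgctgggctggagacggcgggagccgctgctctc
The TOP2A window holds 2 and the CDK1 window 3 CHR matches. The CDK1 window also holds the E2F letters TTGGCGC, left in lower case. ORC1 and CLSPN hold 1 E2F match each, whose first base lies 22 bases before the start in ORC1 and 5 bases before it in CLSPN.

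Collagen and matrix genes went up with dye and were level at the top. Of 29 measured, 24 rose and 1 fell along the line, 26 had a negative curve, and 12 (41.4%) had a negative curve at an unadjusted p under 0.05, against 3.11% of all genes. The median curve was -0.08, and the median bottom, middle and top steps were 0.17, 0.30 and 0.00. The list mean was 8.29 ± 0.05, 8.50 ± 0.07, 8.83 ± 0.13 and 8.85 ± 0.15 log2 CPM over low, midlow, midhigh and high dye (SD, n = 4), and its curve was -0.05, -0.12, -0.13 and -0.08 in replicates 1 to 4. None was called with equal steps by edgeR with the count filter, limma-voom or DESeq2, while the edgeR fit without a filter called 6 (COL11A1, COL1A1, COL1A2, COL3A1, COL5A2 and THBS1), all lower in the outer gates. With the high gate placed 2 steps above midhigh, 5 of the 29 were called (COL11A1, COL1A1, COL3A1, COL4A1 and COL5A2), among 40 genes in all. With the low gate placed 2 steps below midlow, the median was 0.01 and the fit called 0 genes. Without the replicate block, 1 of the 29 had an unadjusted p under 0.05, and fewer of all genes did so than with the block.

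COL3A1, the alpha chain of the fibrillar collagen of soft connective tissue (ENSG00000168542, chromosome 2 from 188974320 to 189012746), had the most negative curve of the list, -0.40 ± 0.10 (SE, edgeR adjusted p = 0.897). COL3A1 had 14.4, 26.5, 10.4 and 22.1 CPM in low dye replicates 1 to 4, 16.2, 48.9, 18.4 and 41.97 CPM in midlow dye, 26.2, 63.8, 39.1 and 69.4 CPM in midhigh dye and 21.8, 54.3, 40.4 and 72.4 CPM in high dye. Midlow dye was above low dye in 4 of 4 replicate numbers, while high dye was above midhigh dye in 2 of 4. COL11A1, a minor fibrillar collagen (ENSG00000060718, chromosome 1 from 102876467 to 103108872), stood at 38.7, 72.7, 175 and 190.1 CPM, a curve of -0.38 ± 0.10 with steps of 0.88 ± 0.15, 1.14 ± 0.15 and 0.13 ± 0.14. COL5A2, which joins type I fibrils, stood at 584, 671, 784 and 751 CPM (-0.13 ± 0.03), and COL1A1, the main chain of type I collagen, at 2594, 2868, 3703 and 3384 CPM (-0.13 ± 0.05). CD248, the fibroblast surface protein endosialin, is no list member and had a curve of -0.21 ± 0.05 at an adjusted p of 0.456. COL1A1, COL1A2 and COL3A1 also belong to the fibroblast markers, of which 12 of 12 had a negative curve (median -0.10). Of the 12, 4 (33.3%) had a negative curve at an unadjusted p under 0.05, against 3.11% of all genes. The part of cell identity in the matrix curves was not tested. COL3A1 and COL5A2 each overlap a gene on the other strand.

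Iron, stress and lysosomal genes mostly went the other way, with small positive curves. Of 19 NRF2 and iron stress genes 16 had a positive curve (median 0.04), and 4 (21.1%) had one at an unadjusted p under 0.05, against 2.27% of all genes. The mean curve of the list was 0.12, 0.15, -0.02 and 0.04 in replicates 1 to 4. Without high dye replicate 1 its median was 0.004. FTH1, the heavy chain of the iron store ferritin, stood at 87.5, 94.1, 162 and 238 CPM over the gates, a curve of 0.23 ± 0.07. FTH1 had 89.9, 73.5, 108 and 78.5 CPM in low dye replicates 1 to 4, 112, 75.7, 113 and 76.4 CPM in midlow dye, 195, 137, 212 and 104 CPM in midhigh dye and 344, 188, 262 and 157 CPM in high dye. Low and midlow dye overlapped, and the increase lay in the upper 2 steps. FTH1 has many processed pseudogenes that can share its reads, so its counts are uncertain. FTH1, SQSTM1, GCLC, CEBPB, VLDLR, DDIT3 and NPC2 each overlap a gene on the other strand. SQSTM1, an autophagy receptor, had a curve of 0.26 ± 0.10, GCLC, which makes a precursor of glutathione, 0.14 ± 0.05, and HMOX1, which breaks down heme, 0.39 ± 0.18. The curve of HMOX1 came from replicates 1 and 2, at 0.54, 0.93, 0.01 and -0.04. FTH1, SQSTM1 and HMOX1 were called in the edgeR fit without a filter. With the high gate placed 2 steps up, the list's median was -0.03, and with the low gate placed 2 steps down it was 0.13.

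The other stress lists had medians of the same sign with equal steps. Of 19 integrated stress response genes 17 were positive (median 0.08), and 2 had an unadjusted p under 0.05, with CEBPB, a bZIP transcription factor, at 0.14 ± 0.05 and DDIT3, the factor CHOP, at 0.31 ± 0.15. Of 28 lysosomal genes 20 were positive (median 0.03), 4 of them (14.3% of the list) at an unadjusted p under 0.05, against 2.27% of all genes, and they included NPC2, which carries cholesterol out of lysosomes, at 0.11 ± 0.05. GPNMB, a lysosomal membrane glycoprotein, stood at 1.62, 2.86, 8.82 and 27.2 CPM, with a slope of 1.37 ± 0.07 and a curve of 0.38 ± 0.18. Of 28 p53 targets 27 rose along the line and 18 had a positive curve (median 0.08), with PPM1D, a phosphatase that restrains p53, at 0.19 ± 0.07 as the 1 member at an unadjusted p under 0.05. That was 3.57% of the list, close to the 2.27% of all genes with a positive curve at that p. The p53 list curve was 0.20, 0.02, -0.02 and -0.05 in replicates 1 to 4, and without replicate 1 the median was 0.01. With the high gate placed 2 steps up, the medians were -0.04 for the integrated stress response and -0.07 for p53 targets.

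Host genes of small nucleolar RNAs and genes of ribosome biogenesis mostly had positive curves. Small nucleolar RNAs guide the modification of ribosomal RNA and are cut from introns of their hosts. Of 18 host genes 16 were positive (median 0.09), and 5 (27.8%) had a positive curve at an unadjusted p under 0.05, against 2.27% of all genes, GAS5 and SNHG19 among them, which were named above for their p. Their median bottom, middle and top steps were -0.11, -0.07 and 0.07, and the list mean curve was 0.04, 0.10, 0.10 and 0.06 in replicates 1 to 4. SNHG8 stood at 32.9, 32.7, 36.3 and 46.1 CPM (0.18 ± 0.06), SNHG32 at 61.1, 59.8, 67.3 and 81.1 CPM (0.15 ± 0.05) and SNHG15 at 24.4, 21.8, 19.5 and 20.7 CPM (0.13 ± 0.05). SNHG8 and SNHG32 were thus high at the upper end, and SNHG15 at the lower. Under both unequal gate spacings the list's median was positive, at 0.09 with the high gate and 0.06 with the low gate 2 steps away.

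Of 26 MYC and ribosome biogenesis genes 20 fell along the line, 24 had a positive curve (median 0.04), and 5 (19.2%) had one at an unadjusted p under 0.05, against 2.27% of all genes. Their median steps were -0.08, -0.17 and -0.01, and the mean curve of the list was -0.005, 0.07, 0.03 and 0.09 in replicates 1 to 4. DKC1, the pseudouridine synthase dyskerin (ENSG00000130826, chromosome X from 154762742 to 154777689), stood at 152, 131, 112 and 116 CPM, a curve of 0.13 ± 0.05 with a bottom step of -0.22 ± 0.07 and a top step of 0.05 ± 0.07. DKC1 had 149.6, 139.9, 169.9 and 149 CPM in low dye replicates 1 to 4, 126, 127, 138 and 132 CPM in midlow dye, 107, 104, 110.1 and 129 CPM in midhigh dye and 105, 117, 108 and 135 CPM in high dye. Low dye was above midlow dye in 4 of 4 replicate numbers, and midhigh and high dye overlapped. NOP2, a methyltransferase of ribosomal RNA, was at 0.10 ± 0.04, and RCL1 and WDR12, factors of ribosomal RNA processing, at 0.12 ± 0.05 and 0.09 ± 0.04. With the low gate placed 2 steps below midlow the median of the list was -0.00. DKC1 overlaps SNORA56 and SNORA36A on its own strand, and RCL1 and WDR12 overlap genes on the other strand.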

How the data were processed

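The authors deposited 1 file of raw counts per library (reads per Ensembl gene, not normalised). STAR was the aligner and HTSeq the counter, on hg38 (GRCh38), per the submitters' processing notes; versions and strand setting are not given in the sources used here. Per the labels' protocols the libraries were poly(A)-selected, with a kit that does not record strand. The files held 58302 genes; symbols were matched for 57532, and coordinates for 58039 came from GENCODE 29. Totals such as no-feature reads (4.98% to 7.72%) stayed out of library sizes. A long-format table of the whole series was left out.

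Counts of the 16 gated libraries were fitted in edgeR 4.0.16 (R 4.3.3) by quasi-likelihood with TMM scaling, filterByExpr (minimum count 10, minimum total 15) and gate plus replicate number as terms. Calls were made below 0.05 after Benjamini-Hochberg adjustment over all genes. SE is the absolute log2 value divided by the square root of F, and CPM values use TMM library sizes (list means: log2 CPM with a prior count of 2). The script was tested on simulated data. The replicate numbers pair the gates: residuals after removal of gate means correlated at 0.347 to 0.625 in all 24 same-number pairs, and above 0.1 in 11 of 96 other pairs. No libraries of a gate were copies (smallest chi-square per degree of freedom 8.22).

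Genes were named by rule: called genes, or, where fewer than 5 passed in a direction, the 5 of lowest p with a mean of at least 10 CPM, plus 8 fixed genes. The members, the 39 gene lists and the tests were chosen with earlier results of these data known. Alternatives covered DESeq2 size factors, no filter, DESeq2 1.42.0, limma-voom (limma 3.58.1), no replicate block, all 20 sort libraries, leaving out libraries, a fit without the cubic term, arithmetic means and unequal gate spacing; the medians of 8 lists under these settings were added after the data were seen.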

Additional observations from a re-analysis of the deposited data

Results flagged for a closer look

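In 4 of 72 combinations of gene and gate (18 genes by 4 gates), 1 library lay apart from the other 3 by more than Dixon's 95% critical value for 4 samples, a test that chance passes in about 1 in 20 groups. Replicate 4 was the library in all 4. DSEL had 128 CPM in high dye replicate 4, against 178 to 188 CPM in the other 3. MYC had 64.4 CPM there, against 72.6 to 72.9 CPM. DOT1L had 47.9 CPM there, against 42.3 to 43.1 CPM. TOP2A had 530.3 CPM in low dye replicate 4, against 415 to 429 CPM. Without replicate 4 the curve of DSEL was -0.16, that of MYC 0.09, that of DOT1L -0.09 and that of TOP2A -0.40.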

How the results depend on the processing

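The count of 0 curved genes was 0 with DESeq2 size factors, without the replicate block (219 at an unadjusted p under 0.05), with all 20 sort libraries, without the cubic term and with the low gate 2 steps down. It was 2 by limma-voom, 7 by DESeq2 and 40 with the high gate 2 steps up (2 with a positive, 38 with a negative curve). Unequal spacing gives the gates other weights, so the sign there is not plainly outer against inner gates. Without a filter it was 77 (9 higher, 68 lower in the outer gates, of 37494 genes). Among the 77 were 13 of the mitosis list, 6 of the matrix list, 3 of the NRF2 and iron list and GAS5. Leaving out libraries or replicate numbers gave 0 to 2: 1 (IGFBP5) without replicate 1, low dye replicate 1 or high dye replicate 2, and 2 (IGFBP5 and SCUBE3) without high dye replicate 4. Without a filter the curves of called genes were nearly the same, and the SE was often smaller. COL11A1 had -0.39 ± 0.05 without it and -0.38 ± 0.10 with it, and IGFBP5 -0.74 ± 0.06 and -0.73 ± 0.11. The SE of LRRC17 was larger without it, at 0.089 against 0.082. The cubic count was 77 without a filter and 0 in every other fit, those leaving out libraries included. The slope count was 3372 without the replicate block, all among the 6344, and 4289 (without replicate 3) to 6573 (without high dye replicate 4) over the leave-outs. The cause of these differences was not tested.

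TERT changed sign without a filter (-0.0085), by limma-voom (-0.0025) and over the leave-outs (-0.0832 to 0.0626), DOT1L over the leave-outs (-0.129 to 0.0063) and TMEM132B with arithmetic means (0.0379). With the high gate 2 steps up the list medians were -0.00 for mitosis, 0.13 for S phase, -0.17 for matrix, -0.04 for the integrated stress response, -0.07 for p53 targets and 0.09 for ribosome biogenesis. With the low gate 2 steps down they were -0.25, -0.18, 0.01, 0.25, 0.17 and -0.00 in the same order. The equal spacing of gates is an assumption.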

Other observations

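Most Wnt pathway genes had negative curves. Of 16 measured, 12 had a negative curve (median -0.10), and 4 (25%) had a negative curve at an unadjusted p under 0.05, against 3.11% of all genes, of which 7412 of 14419 were negative. The receptor FZD7 stood at 71.9, 79.98, 74.9 and 69.2 CPM over low, midlow, midhigh and high dye (-0.14 ± 0.04), the ligand WNT5B at 118, 130.1, 139 and 125 CPM (-0.14 ± 0.04) and the ligand WNT16 at 13.9, 18.1, 21.04 and 19.01 CPM (-0.24 ± 0.10), each highest in an inner gate. The fourth, DKK2, a secreted modulator of Wnt signalling, was highest in high dye, at 1.15, 2.10, 4.31 and 4.68 CPM (-0.37 ± 0.17). Contractile genes had a negative curve in 15 of 17 (median -0.06), with 8 negative in 4 of 4 replicate numbers, against 8.84% of all genes. Cholesterol synthesis genes had a negative curve in 19 of 21 (median -0.04).

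Replication-dependent histone genes, whose transcripts mostly lack a poly(A) tail, had positive curves in 20 of 21 measured (median 0.22), at a summed level of 34.8 to 140.3 CPM. Their list mean was 0.45 ± 0.10, 0.44 ± 0.08, 0.70 ± 0.38 and 1.09 ± 0.40 log2 CPM in low, midlow, midhigh and high dye (SD, n = 4), and the list curve was 0.14, 0.25, 0.19 and 0.23 in replicates 1 to 4. Only 1 gene in each direction had an unadjusted p under 0.05 (9.52% of the list, against 5.37% of all genes). Near-identical copies make single genes of this family uncertain. Genes of cytosolic ribosomal proteins had a positive curve in 55 of 62, at a median of 0.03. Of the 62, 1 (1.61%) had a positive curve at an unadjusted p under 0.05, against 2.27% of all genes.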
